A study of Mus musculus with 3 samples.

Results

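Olfr64 to Olfr69 are class I odorant receptor genes that lie on both sides of the beta-globin genes on mouse chromosome 7. They were chosen by name from the authors' table of named receptor promoters, in which 5 of the 6 names, Olfr65 to Olfr69, had 1 position each, of 1085 positions in all and 106 of class I receptors. Olfr64 had no position in the table. The study mapped the 5′ ends of receptor transcripts in the olfactory epithelium of adult C57/Bl6 mice by RLM-RACE. An RNA oligonucleotide was joined to mRNA whose cap had been removed, cDNA was made from degenerate primers for receptor coding sequence, and the amplified product was read on tiling arrays. The Stringent group (1 array) carried a nested PCR product, and the High Coverage group (2 arrays) carried PCR products made without nesting. Tissue of 5 mice, aged 6 to 8 weeks, was pooled for each sample. By the file headers, High Coverage 1 was made from female and High Coverage 2 from male input, so replicate and sex cannot be told apart.

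Odorant receptors are G protein-coupled receptors of olfactory sensory neurons, and each neuron expresses very few of them. Class I is the evolutionarily older class, known for receptors of carboxylic acids and other hydrophilic odorants. The coding sequence of a mouse receptor gene usually lies in a single exon, with untranslated 5′ exons spliced to it from some kilobases upstream. The beta-globin genes encode chains of haemoglobin and are expressed in red blood cells, so the locus sets genes of olfactory neurons beside genes of another lineage.

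The values are MAT scores, which combine sequence-corrected probe brightness over a window with no scale common to the arrays. Each array had 2188086 scored probes. The authors called regions above MAT scores of 2.52 (Stringent), 2.53 (High Coverage 1) and 2.99 (High Coverage 2), which stood for unlike MAT p-values of 1.75e-09, 1.72e-06 and 2.97e-07. The number of arrays limits the precision, Stringent has no replicate, and no test was run.

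In genome order on build mm9 the named positions were Olfr69 (chromosome 7, 110919845), Olfr68 (110932637), Olfr67 (110940493), Olfr66 (111032133) and Olfr65 (111052118). The first 4 were on the minus strand and Olfr65 was on the plus strand. Olfr69 lay 12792 bp from Olfr68, and Olfr68 lay 7856 bp from Olfr67. A stretch of 91640 bp separated Olfr67 from Olfr66, and Olfr66 and Olfr65 lay 19985 bp apart with their promoters facing outwards. The reference order of RefSeq (GRCm38.p6, used for names and neighbours only) placed Hbb-bt, Hbb-bs, Hbb-bh3, Hbb-bh2, Hbb-bh1 and Hbb-y between Olfr67 and Olfr66. Those globin genes with a promoter window in RefSeq were on the minus strand, the strand of Olfr66 to Olfr69. Olfr67, Olfr68 and Olfr69 thus stood beyond the adult globin genes Hbb-bt and Hbb-bs, and Olfr66 and Olfr65 beyond the embryonic gene Hbb-y. The same order put Olfr64 between Olfr66 and Olfr65 on the minus strand. It also gave Olfr64 as an older symbol of Olfr65, but the plus strand of the table's Olfr65 was that of the reference's Olfr65. No named position of another gene lay among the 5.

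RefSeq promoter windows were found for all 6 names. Among the 250 bases before the annotated start, TATAAA (either strand) was present for Olfr67 and Olfr69, TAATTA (its own reverse complement) for Olfr68, and CCCNNGGG (its own reverse complement) for none. TATAAA was in 12.4% of all 32851 RefSeq windows and in 39.2% of the 948 windows of receptor genes, TAATTA in 4.84% and 18%, and CCCNNGGG in 11.8% and 2.74%. The windows of Olfr66 and Olfr68 were not read as promoters, since the letters ATG stood at the annotated start. The windows of Olfr67 and Olfr69 are shown because they are the members' windows with TATAAA, in capitals, 28 bases before the start in Olfr67 and 31 in Olfr69, which has a further match on the other strand 235 bases before it. They are from chromosome 7, minus strand, build GRCm38.p6, which is not the build of the arrays, so their place relative to the named positions was not set.
Olfr67: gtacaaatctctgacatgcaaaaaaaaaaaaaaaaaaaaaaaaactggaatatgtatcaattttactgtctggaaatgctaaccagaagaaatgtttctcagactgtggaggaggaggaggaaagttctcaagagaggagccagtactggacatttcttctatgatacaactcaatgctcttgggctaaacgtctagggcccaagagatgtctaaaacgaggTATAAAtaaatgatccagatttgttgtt
Olfr69: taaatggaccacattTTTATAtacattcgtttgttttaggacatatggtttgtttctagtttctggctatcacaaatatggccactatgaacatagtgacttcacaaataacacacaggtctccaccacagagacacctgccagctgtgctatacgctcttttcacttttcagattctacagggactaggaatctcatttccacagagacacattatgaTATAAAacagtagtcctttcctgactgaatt

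At the named positions themselves the 5 promoters were split between the products. Olfr67 and Olfr65 had a called region within 100 bp on Stringent, Olfr66 had one on High Coverage 1, and no member had one on High Coverage 2. Among all named positions a region lay within 100 bp at 61.7% for Stringent and at 36.4% and 43.6% for High Coverage 1 and 2. Among class I positions it was 44.3%, 36.8% and 39.6%. With 5 members, the counts of 2, 1 and 0 are given as a description. Olfr68 and Olfr69 had no region there on any array, as did 18.8% of all named positions.

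The highest score within 100 bp of the position was set against all scored probes of its array as a percentile and against the 1079 scored positions as a rank. Olfr65 scored 4.86 on Stringent, at the 94.7 percentile and rank 504, but -0.0381 and 0.215 on High Coverage 1 and 2, at the 68.1 and 74.1 percentiles. Olfr67 scored 3.11 on Stringent, at the 93.8 percentile and rank 603, against -0.189 and -0.824 on High Coverage, at the 62.8 and 36.8 percentiles. Over all scored positions the median percentile was 94.4 on Stringent and 91.3 and 92.4 on High Coverage 1 and 2. Within 100 bp both genes stood near it on Stringent and far below it on both High Coverage arrays, and at Olfr67 the High Coverage arrays also differed from each other by 26.0 percentile points. Olfr69 scored 1.57 on Stringent, at the 92.3 percentile, 0.245 on High Coverage 1, at the 76.0 percentile, and 0.0497 on High Coverage 2, at the 70.1 percentile. Olfr68 scored 0.303, 0.718 and 1.13 in the same order of arrays, at the 87.1, 84.6 and 87.1 percentiles. Olfr66 scored 0.523 on Stringent, at the 88.9 percentile, 3.63 on High Coverage 1, at the 97.1 percentile and rank 187, and 2.38 on High Coverage 2, at the 93.4 percentile. Olfr66 was thus the member with its lowest percentile on Stringent and with both High Coverage values above the class I medians.

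Over class I positions the median percentile was 93.0 for Stringent and 92.7 and 92.6 for High Coverage 1 and 2. Stringent minus the High Coverage mean was 44.0 percentile points at Olfr67, 23.6 at Olfr65, 19.2 at Olfr69, 1.30 at Olfr68 and -6.40 at Olfr66. The High Coverage arrays differed by less than the size of that difference at Olfr65 (-5.95), Olfr69 (5.91), Olfr67 and Olfr66 (3.64), and by more at Olfr68 (-2.50), where the difference was 0.0492 without High Coverage replicate 1. These values hold for the position itself. With 500 bp on each side the High Coverage percentiles were 94.96 and 86.2 at Olfr67, 84.3 and 97.7 at Olfr65 and 95.9 and 97.0 at Olfr69. A wider window cannot lower the highest score, and no median over other positions is given for it. The differences from Stringent then came to 5.19 at Olfr67, 4.60 at Olfr65, -3.68 at Olfr69, -5.24 at Olfr68 and -4.64 at Olfr66, so that the sign turned at Olfr69 and Olfr68. With the mean score in place of the highest, within 100 bp, the difference was 60.7 at Olfr65, 10.01 at Olfr68 and -19.6 at Olfr66.

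**Figure D1:**
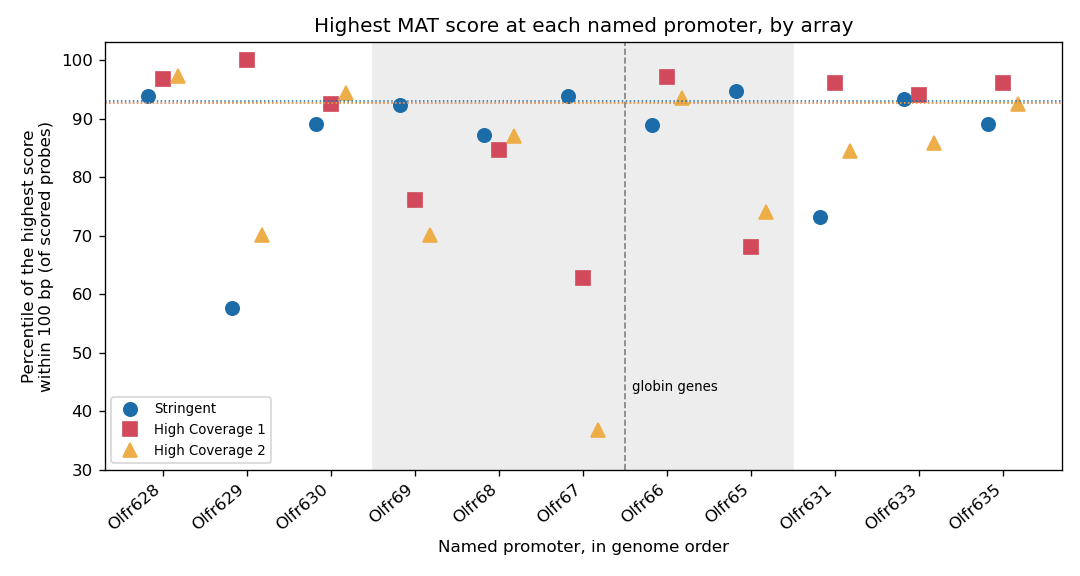
The vertical axis gives the percentile, among scored probes, of the highest MAT score within 100 bp of each named promoter, with 1 point per array and promoters in genome order along the horizontal axis; the 5 members are shaded and dotted lines are the class I medians of each array. Olfr67 and Olfr65 stand at 93.8 and 94.7 on Stringent and at or below 74.1 on both High Coverage arrays within 100 bp, while Olfr66 stands at 88.9 on Stringent and at 97.1 and 93.4 on High Coverage.

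At the promoters with a Stringent region, the Stringent score was higher downstream of the position than upstream. At Olfr65 the mean score was 4.33 over the 150 bp downstream and 0.696 over the 150 bp upstream on Stringent, and at Olfr67 it was 2.02 and 0.0379. In bins of 50 bp, the Olfr65 mean was 1.09, 0.806 and 0.267 in the 3 bins before the position, 2.66 in the first bin after it and 6.76 from 150 to 200 bp. At Olfr67 the rise began before the position, with 1.24 in the last bin upstream and 2.41 in the first downstream. It then fell to 1.22 from 100 to 150 bp and reached 6.97 from 150 to 200 bp. Over these 150 bp sides the downstream mean was below the upstream mean at both genes on both High Coverage arrays. The differences were -0.221 and -0.332 at Olfr67 and -0.669 and -0.956 at Olfr65. With 300 bp on each side the sign turned at both genes on High Coverage 2 but not on High Coverage 1. At Olfr65 the High Coverage 2 mean was 5.08 from 250 to 300 bp downstream. The High Coverage 2 count of members with a higher downstream score was then 3. With 150 bp on each side the Stringent score was higher downstream at 4 of 5 members, and each High Coverage array's at 2. Over the 1041 positions with scores on both sides it was higher at 94.5%, 70.3% and 74.6% (Stringent, High Coverage 1 and High Coverage 2), and over class I positions at 91.3%, 72.8% and 77.7%. Olfr66 went the other way on all 3 arrays, with differences of -0.769, -2.37 and -1.21. Its High Coverage 1 region ran from 127 bp upstream to 65 bp downstream with an authors' region score of 3.63, so most of it lay before the named position. The labels and headers do not say how the authors set the positions, which may rest on these arrays.

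Each of the 5 genes had called regions some kilobases downstream of its position, on Stringent for Olfr67 and Olfr65 and on High Coverage for all, though at Olfr65 those of High Coverage 2 beyond 1 kb lay close to the position of the next receptor or past it. Olfr67 had the highest Stringent score of the group, 14.4, at 3705 bp downstream, in a region from 3556 to 4182 bp. Upstream of it on Stringent were only the adjoining regions from -29 to 96 bp (score 3.11) and from 97 to 306 bp (score 7.50). The High Coverage arrays had their highest scores further along, both at 4410 bp, with 8.43 in a region from 4283 to 4653 bp on High Coverage 1 and 13.0 in a region from 3946 to 4664 bp on High Coverage 2. The Stringent and High Coverage 1 regions of Olfr67 shared 0 bp, and the Stringent and High Coverage 2 regions shared 368 bp, or 38.3% of the Stringent and 32.1% of the High Coverage 2 length. Between the High Coverage arrays 668 bp were shared, or 91.3% and 58.2%. Both also had a region ending 958 bp downstream, with scores of 4.47 and 4.53, where Stringent had none. Across the 1366 probes of the Olfr67 span the scores correlated with r = 0.721 between the High Coverage arrays, and with r = -0.0982 and 0.143 between Stringent and each of them. These are descriptions over neighbouring probes, which share windows.

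Olfr65 showed a stepwise pattern on Stringent. Regions ran from 35 bp upstream to 347 bp downstream (score 6.99), from 522 to 860 bp (9.57) and from 2650 to 3270 bp (10.6). High Coverage 2 had the first pair too, from 158 to 362 bp (6.59) and from 527 to 860 bp (6.49), but no region at 2650 to 3270 bp. High Coverage 1 had no region in the first 5 kb downstream. Both arrays came close to a call at the third Stringent region. In a 500 bp bin inside it, High Coverage 2 reached 2.88 (threshold 2.99) and High Coverage 1 reached 2.525 (threshold 2.53). Here the shared length was 731 bp between Stringent and High Coverage 2, or 47.2% and 82.6%, with r = 0.645 across 1883 probes, and 209 bp with r = 0.310 between Stringent and High Coverage 1. The 209 bp all lay from 7154 to 7364 bp downstream, and the 731 bp included them. There all 3 arrays had a region, ending between 7364 and 7374 bp downstream. It lay within 1 kb upstream of the named position of Olfr631, the next receptor on the same strand, at 7880 bp, and cannot be given to Olfr65 alone.

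Olfr69, Olfr68 and Olfr66 had no Stringent region from 1 kb upstream to 10 kb downstream, and their highest Stringent scores in that span were 1.92, 2.19 and 2.518. The last of these, 1593 bp downstream of the Olfr66 position, was just below the Stringent threshold of 2.52. All 3 genes had High Coverage regions, with higher scores on High Coverage 2 than on High Coverage 1 (the arrays have no common scale). At Olfr69 the strongest of them lay from 2762 to 3165 bp on High Coverage 1, with scores of 5.10 and 3.93, and from 2549 to 3188 bp on High Coverage 2, with scores of 10.8 and 10.7. High Coverage 1 added regions from 4464 to 4602 bp (2.99) and from 5531 to 5702 bp (3.17), and High Coverage 2 added one from 3522 to 3805 bp (8.69). Near the Olfr69 position each High Coverage array had a region just outside the 100 bp limit, from 156 to 306 bp downstream on High Coverage 1 and from -320 to -126 bp, upstream, on High Coverage 2.

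At Olfr68 both High Coverage arrays had a region ending near 6 kb downstream, from 5844 to 6023 bp on High Coverage 1 (4.19) and from 5771 to 6027 bp on High Coverage 2 (9.15), with their highest scores at the same probe, 5916 bp from the position. The regions nearest to the Olfr68 position lay upstream of it, at 2608 bp or more, and belonged to the span of Olfr67. At Olfr66 the called regions downstream lay closer to the position. The comparison is limited, since Olfr68 had 0 scored probes from 500 to 1000 bp and from 2000 to 3500 bp downstream. High Coverage 2 had 4 regions between 593 and 2060 bp, with scores from 3.55 to 7.43, the last of them from 1471 to 2060 bp, and High Coverage 1 had 1 region inside that last stretch, from 1743 to 1872 bp (3.11).

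**Figure D2:**
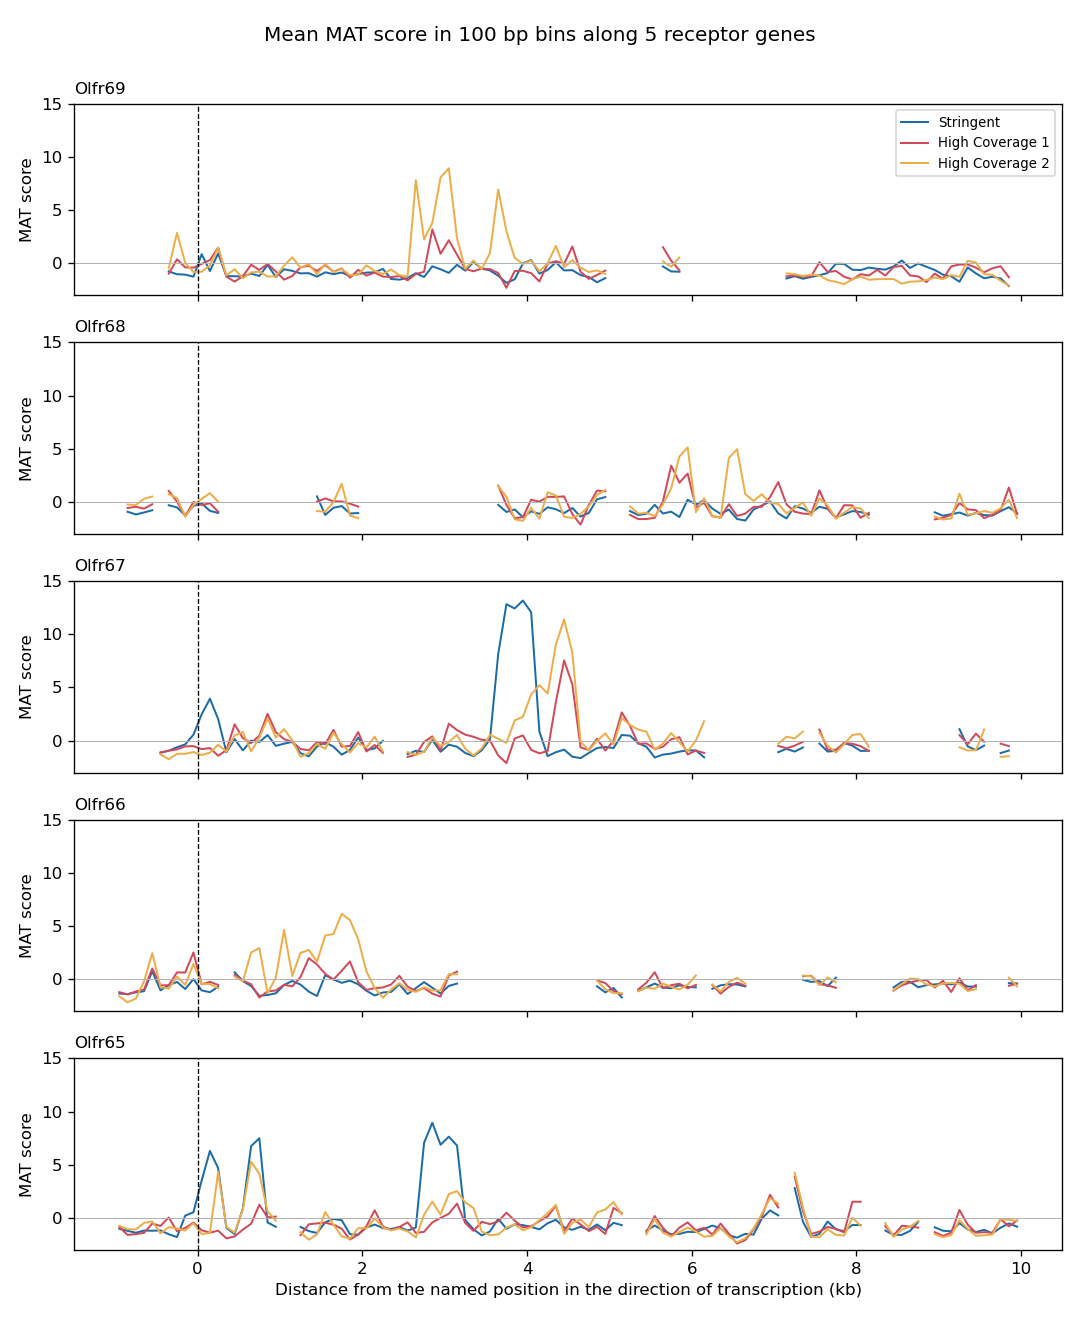
Each panel plots the mean MAT score in bins of 100 bp (vertical axis, natural log scale by the file headers) against the distance in kb from the named position (dashed line) in the direction of transcription, with 1 line per array and breaks where fewer than 3 probes were scored. Stringent rises above its threshold near the position in Olfr67 and Olfr65. Its peak in Olfr67, highest in the bin centred at 3950 bp, stands before the High Coverage peaks in the bin centred at 4450 bp.

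Summed over the 5 spans of 11 kb, the called length was 2509 bp in 8 Stringent regions, 3392 bp in 19 High Coverage 1 regions and 5022 bp in 19 High Coverage 2 regions. Of the 6905 scored probes, counted once per span, 7.02%, 8.44% and 13.9% lay in a region. Over the like spans of all named positions it was 16.4%, 14.3% and 15%, and over those of class I positions 9.57%, 10.9% and 11.1%. High Coverage 2 had the largest share at Olfr66, 27.7% of 920 probes, the fewest scored probes of the 5 spans. In called length this was 1352 bp, against 1148 bp at Olfr67 (15.6% of probes) and 1113 bp at Olfr69 (13.8%). The spans of Olfr67 and Olfr68 overlap, since the Olfr68 position lies 7856 bp downstream of that of Olfr67. A region 1 to 10 kb downstream was common in the family, at 88.4% (Stringent), 95.5% (High Coverage 1) and 92.4% (High Coverage 2) of all named positions. No share over class I positions alone is given for such a region. Among the members, Stringent had one at 2 of 5 and either High Coverage array at 5 of 5. On High Coverage 2 the count was 4, without Olfr65, after leaving out regions that reach within 1 kb upstream of the next named position or lie beyond it, and the other arrays' counts were the same. The 2 with a Stringent region at the position, Olfr67 and Olfr65, were the 2 with one downstream. In the family 95.2% of the 669 positions with a Stringent region within 100 bp had one downstream as well. Over all named positions, with or without a Stringent region within 100 bp, it was 88.4%.

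The stretch between Olfr67 and Olfr66, which holds the globin genes in the reference order, was tiled with 2769 scored probes and had 7 gaps of over 1000 bp that summed to 24315 bp. Its highest scores lay in 2 compact groups of regions, far from both receptors. The first group began 20592 bp from the Olfr67 position on High Coverage 1 and held 3 regions, at 110961085 to 110961359, 110961883 to 110962236 and 110962237 to 110962488, with scores of 11.55, 18.65 and 13.53. High Coverage 2 had 3 regions in the same place with scores of 8.94, 14.77 and 9.08. The second group repeated the first 14009 bp further on, with scores of 11.42, 18.65 and 16.47 on High Coverage 1 and of up to 14.87 on High Coverage 2. Over 36 pairs of probes spaced by 14009 bp the scores of the groups correlated with r = 0.998 on each High Coverage array. Whether the 2 places share sequence was not tested, and they are not given as independent measurements.

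On High Coverage the tallest regions of these groups stood above those of the receptors. The highest called region of a member was 8.43 on High Coverage 1 and 13.0 on High Coverage 2, both at Olfr67. The tallest globin-side regions ranked 205 of 7266 on High Coverage 1 and 464 of 6311 on High Coverage 2. On Stringent the same places had 3 regions with scores of 2.97 to 3.27, ranked 2947 of 3608 at best, against 14.4 at Olfr67. The order of the globin side against Olfr67, and against Olfr65 (10.6 on Stringent), was thus opposite between the groups of arrays, which was not tested. It was not opposite for Olfr69, Olfr68 and Olfr66. Their highest Stringent scores from 1 kb upstream to 10 kb downstream, 1.92, 2.19 and 2.518, were below those of the globin-side regions too. In the reference the first 2 genes beyond Olfr67 are Hbb-bt and Hbb-bs, but the regions were given to no gene, since no annotation of mm9 was used. Whether they come from globin transcripts was not tested. Elsewhere in the stretch, outside the 10 kb downstream of Olfr66, High Coverage 1 had a region 37802 bp from Olfr67 (3.20), a pair of adjoining regions at 53496 bp (7.09 and 3.11) and 1 at 79363 bp (2.63), and the other arrays had none there.

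**Figure D3:**
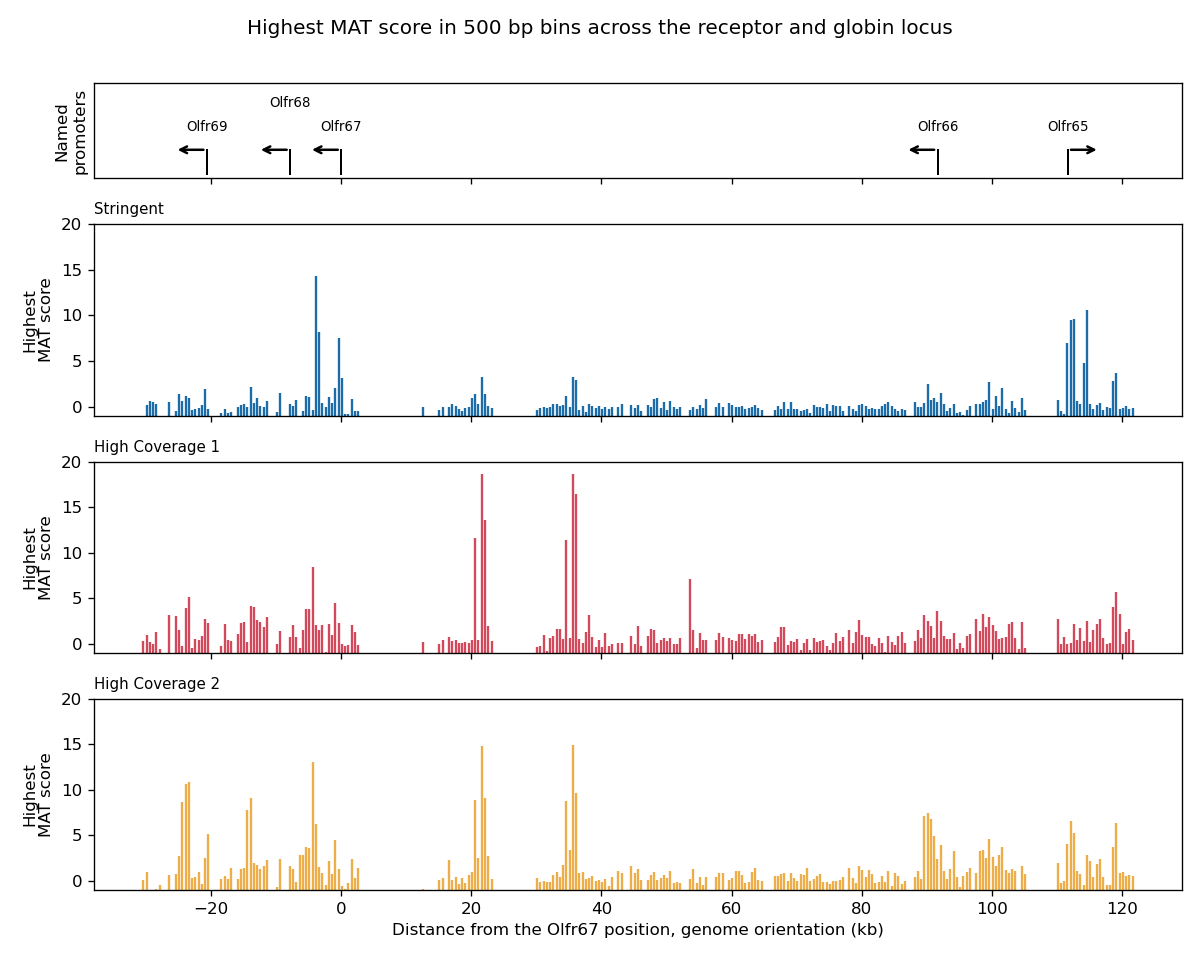
The upper panel places the 5 named promoters with their direction of transcription, and the lower panels give the highest MAT score in bins of 500 bp for each array, by distance in kb from the Olfr67 position. The High Coverage arrays peak at 18.7 and 14.9 in a pair of groups between 20592 and 36022 bp, where Stringent reaches 3.27, and Stringent peaks at Olfr67 and Olfr65.

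The stretch between Olfr66 and Olfr65, where the reference order has Olfr64, carried regions with scores of at most 4.65. Stringent had 1 region there, with a score of 2.70, 7729 bp from the Olfr66 position. High Coverage 1 had 6 regions with scores up to 3.23 and High Coverage 2 had 6 with scores up to 4.65. The last of these scores ranked 2744 of 6311 on its array. All 3 arrays had a region in the stretch from 111039862 to 111040139, and the scores were near the authors' thresholds on Stringent and High Coverage 1. A gap of 5040 bp without probes ended 1501 bp from the Olfr65 position, so signal in it could not be seen. No level is given for Olfr64, which had no named position.

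By the distance of the 3 percentiles, the class I promoter most like each member, among 99 others, was Olfr653 for Olfr69 (1.06 percentile points), Olfr78 for Olfr68 (6.89), Olfr677 for Olfr67 (11.1), Olfr635 for Olfr66 (1.33) and Olfr593 for Olfr65 (7.06). Olfr677 scored 10.8 on Stringent but 0.113 and -0.734 on High Coverage 1 and 2, a higher Stringent value than at Olfr67. The likeness was measured over 3 arrays only. Olfr635 is also a near neighbour of Olfr65, on its far side from the globin genes.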

How the data were processed

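The members and lists were chosen with earlier results of these data known. The score files hold a MAT score per probe position, which the authors computed array by array without a control (bandwidth 50, maximum gap 30, minimum of 5 probes), per the file headers. The region lists give the authors' calls with their positions, lengths and scores, and the promoter table gives 1 position with strand per row, on mm9 per the submitters' processing notes. A score of 0 on all 3 arrays (5.42% of 2313448 probes) was read as no window score. The highest score within 100 bp of a position gave its percentile, and regions counted with an overlap of at least 1 bp. Spans ran from 1 kb upstream to 10 kb downstream. Region edges are as deposited.

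Genes were named by rule: the members, the 3 named positions next to them on each side, the class I promoter nearest in its 3 percentiles, and the globin genes. Class I was Olfr543 to Olfr692, Olfr33, Olfr64 to Olfr69 and Olfr78 on chromosome 7. Proteins were not compared here. The overlap and percentile steps were tested on simulated data. With 1 array against 2, no test was run. The alternatives were other windows, region lists, overlaps, spans and scales, and each High Coverage array left out. Software was numpy 2.4.6, pandas 2.3.3 and matplotlib 3.10.9 under Python 3.11.15.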

Additional observations from a re-analysis of the deposited data

How the results depend on the processing

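On Stringent the 2 members with a region at the position fell to 0 with the higher-scoring 50 percent of the list. With 500 bp on each side the count was 2 on High Coverage 1 and 2 on High Coverage 2, against 1 and 0. The summed called length on High Coverage 1 was 1930 bp with the spans ended at 5 kb and 2100 bp with its 3608 highest-scoring regions, against 3392 bp. By that list, chosen for this purpose after seeing the data, High Coverage 1 had 7 regions between Olfr67 and Olfr66, against 11. The other 24 such values stayed within 1.5 times or within the spread of the High Coverage arrays. Of the alternative percentiles and differences together, 42 were counted as unchanged, 26 as moved and 2 as turned in sign. With the mean score in place of the highest, the Olfr65 percentiles were 35.2 and 29.3 on High Coverage 1 and 2. On Stringent, Olfr66 was then at 64.4, and Olfr67 and Olfr65 at 92.5 and 92.9. A mean cannot exceed the highest score, and no median over other positions is given for it. Of 25 alternative values of the Stringent minus High Coverage difference, 2 turned in sign, both with 500 bp on each side, a setting added for this difference after seeing the data: -3.68 at Olfr69 and -5.24 at Olfr68. Without High Coverage replicate 1 and 2, the difference was 0.0492 and 2.55 at Olfr68, and within 1.5 times at the other 4 members. No paired analysis was possible because Stringent has 1 array with no replicate number.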

Other observations

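Of the named promoters next to the group, Olfr629, on the far side of Olfr69, scored 24.4 on High Coverage 1 (99.9 percentile) but 0.0509 on High Coverage 2 and -0.615 on Stringent, a single array's signal. Olfr628 scored 3.18, 3.37 and 5.69 and was called on each array. Olfr630 had none, with percentiles of 89.1, 92.5 and 94.3. On the other side, Olfr631 stood at the 73.1 percentile on Stringent and at 96.0 and 84.5 on High Coverage. It had a region on High Coverage 1 alone, with an authors' region score of 3.3 and a highest score within 100 bp of 2.78. Olfr633 had a region on Stringent alone and Olfr635 on High Coverage 1 alone. Their highest scores within 100 bp on those arrays were 2.61 and 2.88. Among these 6 neighbours, Stringent minus High Coverage ran from -27.4 to 3.52 percentile points within 100 bp. Olfr68 (1.30) and Olfr66 (-6.40) lay inside that range, and Olfr69 (19.2), Olfr65 (23.6) and Olfr67 (44.0) above it. With 500 bp on each side the differences at Olfr69, Olfr65 and Olfr67 came to -3.68, 4.60 and 5.19. No neighbour value is given for that window.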
